A study of Arabidopsis thaliana with 4 samples.

Results

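The genes described here are 10 regulators of phase change and flowering time in Arabidopsis thaliana: the SPL transcription factor genes SPL3, SPL4, SPL5, SPL9 and SPL15, the flowering promoters FT, SOC1 and FUL, and the flowering repressors FLC and SVP. They were picked by locus identifier as markers of developmental age, by a rule that uses no measured value, although earlier results of these data were known when the rule was written. All 10 were found among the 25665 genes with a probe on the array, each with 1 probe, and 9 of them were bright enough to be tested among 19492 genes. RNA came from whole Columbia-0 seedlings, 14 days old and untreated, of 2 genotypes. The overexpressor, 35S:AtERF4-HA, carries ERF4, an ethylene response factor that represses transcription. The control, 35S:NLS-GFP-HA, carries a nuclear green fluorescent protein. Both transgenes are driven by the 35S promoter, which is active in most plant tissues, and both carry an HA tag, so the control shares promoter and tag with the overexpressor. The sources used here do not say whether the plants of a genotype came from 1 or several independent lines. Each of 4 arrays held 1 biological replicate, with many plants of both genotypes sharing a plate with 0.5% sucrose at 23 degrees Celsius in 16 h of light and 8 h of darkness.

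Arabidopsis passes from a juvenile to an adult vegetative phase and then to flowering. In young seedlings the microRNA miR156 is abundant and holds SPL transcripts down. As the plant ages miR156 declines, SPL proteins accumulate, and they activate miR172, SOC1 and FUL. Long days act in parallel through the protein CONSTANS, which induces FT in leaf veins, and the FT protein travels to the shoot tip as the flowering signal. SVP and FLC are MADS-box repressors that bind at the FT and SOC1 genes and hold flowering back.

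ERF4 (AT3G15210), the overexpressed gene, was read by a single probe. Its log2 ratios of AtERF4-HA over control were 0.98, 0.87, 0.82 and 1.04 on arrays 1 to 4, so the normalised ratio was above 0 on each array (limma, 0.93 ± 0.07, SE, n = 4 arrays, adjusted p = 0.00284). In raw signal, before dye differences are removed, the probe read 1694, 1721, 3441 and 3371.5 in AtERF4-HA seedlings and 2172, 1859, 937 and 841 in control seedlings, brighter in red on every array. Directions throughout follow the dye labels, with AtERF4-HA in Cy3 on arrays 1 and 2 and in Cy5 on arrays 3 and 4. The authors' deposited value table runs against the dye labels on every array. It gives ERF4 as -0.87, -0.71, -0.75 and -0.85 on a natural log scale, although the sample titles name the overexpressor first. If the dye labels were exchanged, every rise below, and that of ERF4 in its own overexpressor, would be a fall of the same size. Between genes, the ratios of any pair of arrays correlated at 0.70 to 0.87 (Pearson, across genes, which are not independent replicates). The median spot read 122 to 140 in the green channel, and 166 to 222 in the red one, with local backgrounds near 58 to 60. The closeness of signals to background and the number of arrays limit the precision.

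Of the 9 tested regulators, SPL9 and SVP rose in AtERF4-HA seedlings and none fell, while the other 7 did not pass the threshold of an adjusted p of 0.05 (limma, Benjamini-Hochberg over all genes tested). Among all tested genes 13.6% (2654) were called higher and 11.9% (2329) lower, a split that became 7892 higher and 3064 lower with the authors' deposited value table. At an unadjusted p under 0.05 in limma, 3 of the 9 were higher and 0 were lower, beside 22.3% and 20.6% of all tested genes. The median ratio of the 9 was 0.28 on the log2 scale, beside 0.01 for all tested genes, and 7 of the 9 had a fitted ratio above 0. The RNA came from whole seedlings, so a change in RNA per cell and a change in the number of cells that express a gene cannot be told apart. Probe sequences were not used here, so whether transcripts of close relatives, such as SPL4 and SPL5, share signal was not tested.

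**Figure D1:**
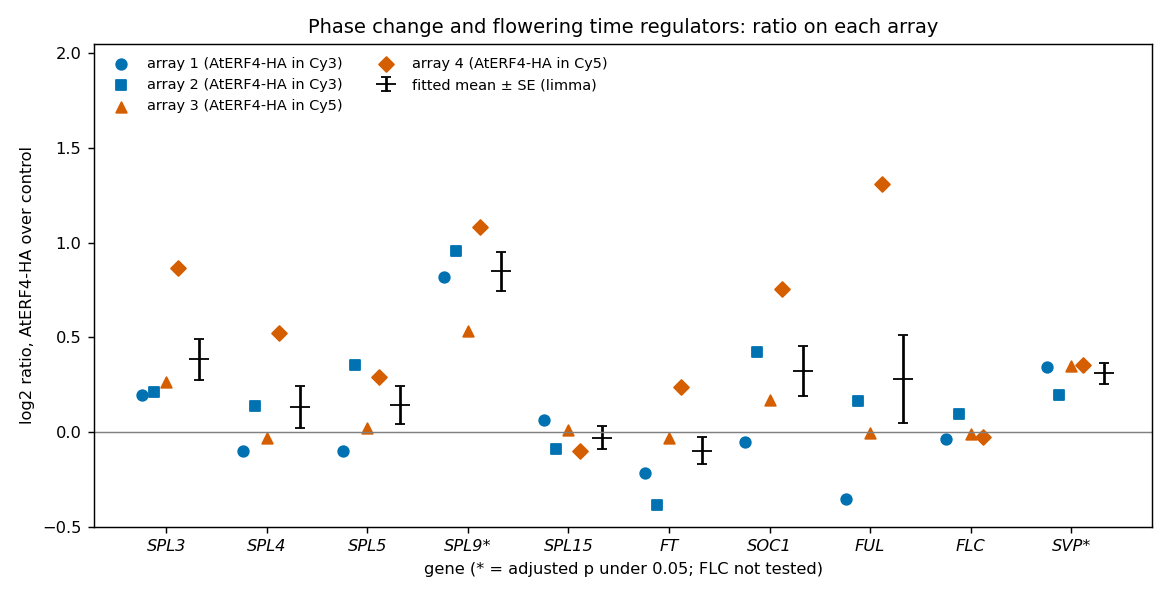
Log2 ratio of AtERF4-HA over control (y axis) for each of the 10 regulators on each of the 4 arrays, coloured by the dye of the AtERF4-HA RNA, with the fitted mean and its standard error beside the points for the 9 tested genes. SPL9 lies between 0.54 and 1.08 on all arrays and SVP between 0.20 and 0.35, while FUL runs from -0.35 to 1.31.

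SPL9 (AT2G42200), which promotes adult leaf traits and the start of flowering, had the fitted ratio farthest from 0 among the 9 tested regulators. FT lay farther from 0 with background-subtracted signals (-1.45 against 0.97), processed signals (-1.34 against 1.02) and the authors' deposited value table (-1.23 against 1.13). On the log2 scale the SPL9 signals on arrays 1 to 4, normalised, were 10.86, 10.77, 10.56 and 10.93 in AtERF4-HA seedlings. They were 10.04, 9.81, 10.03 and 9.85 in control seedlings. All 4 AtERF4-HA values lay above all 4 control values. The ratios were 0.82, 0.96, 0.54 and 1.08, and the fitted ratio was 0.85 ± 0.10 (1.80-fold higher, SE, n = 4 arrays, limma adjusted p = 0.00853). Of all tested genes, 5.49% had a larger ratio in either direction. Leaving out array 1 (0.88, adjusted p = 0.0692) or array 2 (0.81, adjusted p = 0.0787) ended the call of SPL9. In those fits the spread between replicates came from arrays 3 and 4 alone. Without array 3 or array 4 it came from arrays 1 and 2 alone, for this gene and all others.

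SPL15 (AT3G57920), the closest relative of SPL9 and partly redundant with it, had normalised signals of 8.44, 8.52, 8.46 and 8.47 in AtERF4-HA seedlings and 8.37, 8.61, 8.45 and 8.57 in control seedlings. The values of the genotypes overlapped, and the ratios were 0.06, -0.09, 0.01 and -0.10. The fitted ratio of -0.03 had a 95% confidence interval of -0.18 to 0.13 (limma, adjusted p = 0.739), so the interval ends below the 0.58 at which that of SPL9 begins. Over 14 other settings the SPL15 ratio ran from -0.07 without array 1 to 0.22 with the authors' deposited value table (limma adjusted p = 0.111), and it passed in none. SPL15 was dimmer than SPL9, and the difference between SPL9 and SPL15 itself was not tested.

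SPL3 (AT2G33810), SPL4 (AT1G53160) and SPL5 (AT3G15270) are the 3 small SPL genes, whose proteins help to activate floral identity genes at the shoot tip. The SPL3 signals were 9.92, 9.81, 9.85 and 10.31 in AtERF4-HA seedlings, against 9.72, 9.60, 9.58 and 9.45 in control seedlings, with no overlap. Its ratio was above 0 on 4 of 4 arrays, at 0.19, 0.21, 0.27 and 0.86, and array 4 stood well above the rest. The fitted ratio of 0.38 ± 0.11 (SE, n = 4 arrays) did not pass (limma adjusted p = 0.0629, 95% confidence interval 0.10 to 0.67). SPL3 passed in 6 of 14 other settings, among them uncorrected background (0.45, adjusted p = 0.00427). Its ratio was 0.53 without array 3, a fit to whose spread array 4 does not add, and 0.23 without array 4.

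The ratios of SPL4 were -0.10, 0.14, -0.03 and 0.52 on arrays 1 to 4, and those of SPL5 were -0.10, 0.36, 0.02 and 0.29. Both genes thus had ratios on either side of 0, and the signals of the genotypes overlapped. The fitted ratio was 0.13 for SPL4 (95% confidence interval -0.15 to 0.42) and 0.14 for SPL5 (-0.12 to 0.40), and neither passed (limma adjusted p = 0.397 and 0.323). Neither passed in any of 14 other settings. The highest ratios came with the authors' deposited value table, 0.32 for SPL4 (limma adjusted p = 0.169) and 0.49 for SPL5 (0.0519). The lowest were -0.01 for SPL4 without array 4 and 0.03 for SPL5 without array 2.

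Among the 10, normalised signals of all 4 AtERF4-HA channels above all 4 control channels were found for SPL9, SPL3 and SVP, and the reverse for none. Of all tested genes, 17.2% were separated upwards in this way and 16.4% downwards.

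**Figure D2:**
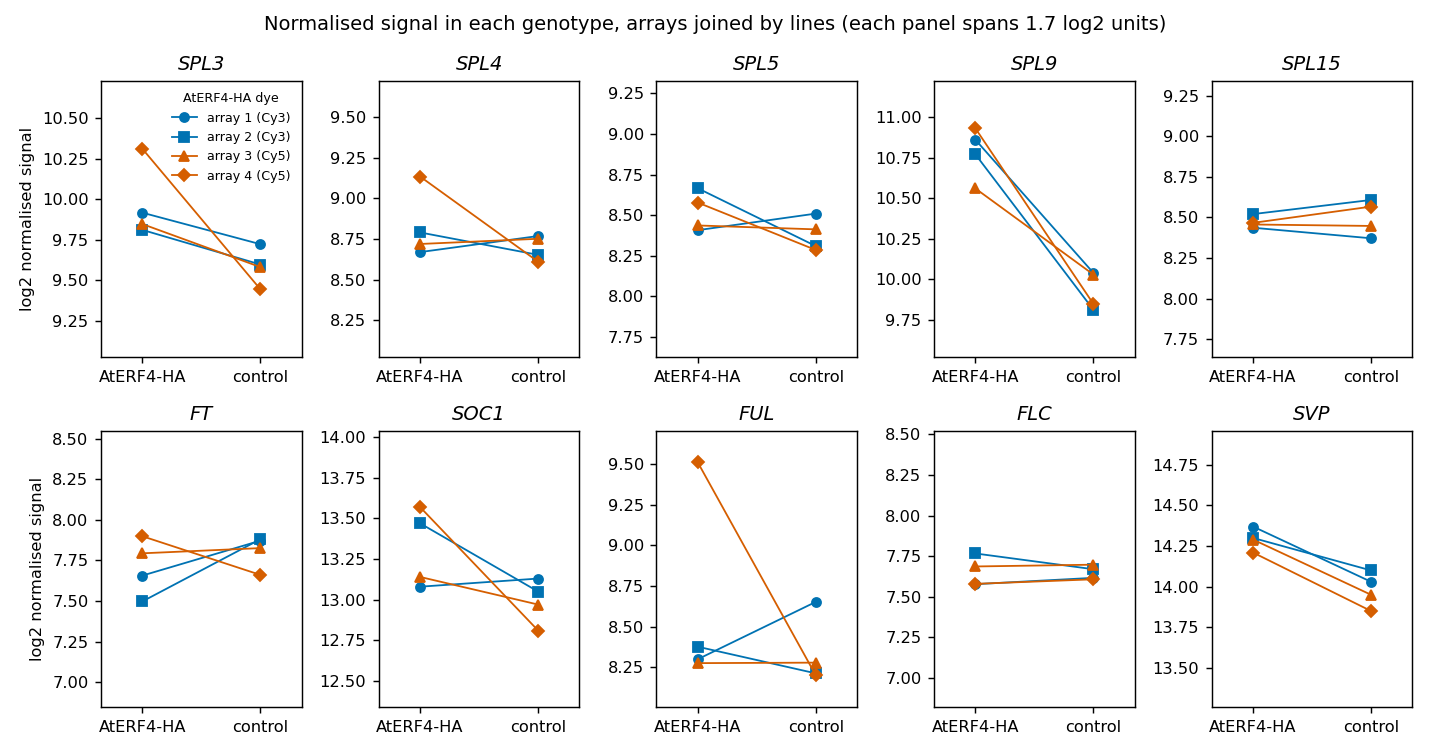
Log2 normalised signal (y axis) of each regulator in AtERF4-HA seedlings (left of each panel) and control seedlings (right), with the values of 1 array joined by a line. The genotypes do not overlap for SPL3, SPL9 and SVP, the FUL signal of array 4 (9.51) stands apart from the other AtERF4-HA values, and FLC stays between 7.58 and 7.77.

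SOC1 (AT2G45660), a MADS-box gene that integrates the age, photoperiod and gibberellin routes, was bright in both genotypes. Its signals were 13.08, 13.47, 13.14 and 13.57 in AtERF4-HA seedlings, against 13.13, 13.05, 12.97 and 12.81 in control seedlings. The ratio was -0.05 on array 1 and 0.42, 0.17 and 0.76 on arrays 2 to 4, so 3 of 4 arrays were above 0. The fitted ratio of 0.32 ± 0.13 did not pass (limma adjusted p = 0.131, 95% confidence interval -0.02 to 0.67). It passed with median centring (0.43, adjusted p = 0.0268) and with the authors' deposited value table (0.46, adjusted p = 0.0498). The ratio came to 0.47 without array 3, a fit to whose spread array 4 does not add, and to 0.18 without array 4.

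FUL (AT5G60910), a MADS-box gene that acts with SOC1 at the shoot tip, had the widest spread over arrays of the 10. Its signals were 8.30, 8.38, 8.28 and 9.51 in AtERF4-HA seedlings and 8.65, 8.21, 8.28 and 8.20 in control seedlings. Only array 4 showed a large ratio, 1.31, beside -0.35, 0.16 and -0.00 on arrays 1 to 3. The fitted ratio was 0.28 ± 0.23 (limma adjusted p = 0.399), -0.05 without array 4 (adjusted p = 0.811) and 0.61 without array 3 (adjusted p = 0.016).

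Array 4 gave the highest ratio in 7 of the 9 tested regulators (77.8%), all but SPL5 and SPL15. Of all tested genes 25.8% had their highest ratio on that array, and of the genes called higher 36.7%. The median ratio of the 9 was -0.05, 0.20, 0.02 and 0.52 on arrays 1 to 4. The median of all genes was within 0.03 of 0 on every array, where the loess normalisation of each array places it. The fitted median of the 9 was 0.08 without array 4. Both regulators that passed stayed above 0 without array 4, SPL9 at 0.71 and SVP at 0.31.

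FT (AT1G65480), the gene of the mobile flowering signal, was dim. Its probe was well above background in the control channel of all 4 arrays, and in the AtERF4-HA channel on arrays 3 and 4 but not on arrays 1 and 2. The raw spot signals were 73, 77, 97.5 and 108.5 in AtERF4-HA seedlings over local backgrounds of 58 to 62.5, against 163, 104, 124.5 and 90 in control seedlings over backgrounds of 56 to 64. These raw signals still hold the difference between the dyes, with AtERF4-HA in green on arrays 1 and 2. The ratios were -0.22, -0.38, -0.03 and 0.24, and the fitted ratio of -0.10 ± 0.07 did not pass (limma adjusted p = 0.346, 95% confidence interval -0.29 to 0.09).

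The value of FT moved with the treatment of background, and the cause was not tested. The reported ratios carry an offset of 50 added to each corrected signal. With signals from which the background was simply subtracted the ratios were -3.16, -1.79, -1.21 and 0.36, and the fitted ratio was -1.45 (adjusted p = 0.0326). It was -1.34 with the processed signals of the scanner software (adjusted p = 0.044), -1.23 with the authors' deposited value table (adjusted p = 0.0476) and -0.37 with no background correction (adjusted p = 0.0458). In those 4 settings FT was called lower, and in none of the 9 others that gave it a value was it called. FT entered the test only through the control channel and dropped out where both channels had to be above background. The ratios of arrays 1 and 2 rest on AtERF4-HA signals not well above background, so their size is not measured. Array 4 had the opposite sign to the other arrays in both the processed and the background-subtracted signals.

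FLC (AT5G10140), a MADS-box repressor that vernalisation silences, is known to be low in Columbia-0, which lacks a working FRIGIDA allele. It was well above background on 2 of 4 arrays in AtERF4-HA seedlings and on 3 of 4 in control seedlings and was not tested. The raw spot signals were 74, 82.5, 100 and 77 in AtERF4-HA seedlings and 94, 86, 97 and 76 in control seedlings, over local backgrounds of 53 to 75. The ratios were -0.04, 0.10, -0.01 and -0.03, and with the processed signals of the scanner software -1.21, -0.23, -0.18 and 0.50. No difference was detectable at these signals. With the filter on dim probes removed the fitted ratio of FLC was 0.01 ± 0.05 (limma adjusted p = 0.962). That fit used signals near background with the offset added to each channel, which narrows the ratio between dim signals. Its small standard error therefore does not show that FLC was unchanged, and whether FLC changed cannot be decided from it.

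SVP (AT2G22540), the MADS-box repressor that acts on FT and SOC1, was bright in both genotypes and rose slightly, least on array 2. Its signals were 14.37, 14.30, 14.29 and 14.21 in AtERF4-HA seedlings, against 14.03, 14.10, 13.95 and 13.85 in control seedlings, with no overlap. The ratios were 0.34, 0.20, 0.35 and 0.35, and the fitted ratio was 0.31 ± 0.06 (1.24-fold higher, SE, n = 4 arrays, limma adjusted p = 0.0214). Without array 1 it came to 0.27 (adjusted p = 0.139) and without array 2 to 0.35 (adjusted p = 0.117).

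The other genes of these routes were counted in 11 lists with 99 members, of which 88 were tested. In all, 10 rose, 7 fell and 71 did not pass, with a median of 0.02. This count and that of each list below are to be read beside the 13.6% called higher and 11.9% called lower among all genes. The counts over the 11 lists moved to 31 higher and 8 lower with the authors' deposited value table (median 0.16). Among all genes that setting gave 7892 higher and 3064 lower (median 0.16). The list counts were 19 and 11 with no background correction, where 4195 and 4925 of all 19492 genes were called higher and lower. With background-subtracted signals they were 15 and 12, beside 4052 and 4491 of all genes. With processed signals they were 20 and 10, beside 5050 and 3926. Without array 1 or without array 2 far fewer genes were called, in the lists as among all genes. For the genes named from the lists, the calls held least well without array 1 or array 2. Of the 14 chosen by size, 13 lost their call in each case (adjusted p = 0.061 to 0.214), all but TEM1, and so did TOE1, SNZ and CDF3 (0.0953 to 0.248).

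The related FT repressors TEM1 (AT1G25560) and TEM2 (AT1G68840), DNA-binding proteins of the RAV family, fell. TEM1 had signals of 11.06, 11.16, 11.11 and 10.83 in AtERF4-HA seedlings, against 12.46, 12.42, 12.72 and 12.59 in control seedlings. Its ratio of -1.51 ± 0.06 (2.85-fold lower, limma adjusted p = 0.0013) was the farthest from 0 in the 11 lists, and it passed in all 14 other settings. The ratios of TEM2 were -0.15, -0.43, -0.69 and -1.39, with a fitted value of -0.67 ± 0.13 (limma adjusted p = 0.0265). TEM2 did not pass without a dye term (adjusted p = 0.0551), and array 4 again held the ratio farthest from 0. The other 4 genes in the list of FT repressors, LHP1, CLF, EMF1 and EMF2, encode chromatin proteins. They lay between -0.10 and 0.19 and did not pass.

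The miR172-targeted AP2 family, repressors of flowering that miR172 holds down in older plants, split. Of 6 members 2 rose, 2 fell and 2 did not pass, with a median of 0.01, beside 13.6% higher and 11.9% lower among all genes. TOE3 (AT5G67180) rose, with ratios of 1.01, 1.49, 0.54 and 1.51 (1.14 ± 0.18, limma adjusted p = 0.016). TOE1 (AT2G28550) rose by 0.33 ± 0.07. SMZ (AT3G54990) fell, with ratios of -0.46, -0.68, -0.34 and -1.30 and a fitted value of -0.69 ± 0.17 (limma adjusted p = 0.0428), as did its relative SNZ (AT2G39250), at -0.34 ± 0.06. TOE3 came to 1.81 with the authors' deposited value table, and SMZ to -1.13 with background-subtracted signals and -0.45 without array 4. SMZ did not pass with an offset of 16 (adjusted p = 0.0615) and SNZ not with median centring (-0.27, adjusted p = 0.094). AP2 was at 0.13 and TOE2 at -0.11, and neither passed.

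Of the other SPL genes that miR156 targets, SPL11 (AT1G27360) rose, with ratios of 0.36, 0.39, 0.33 and 0.71 (0.45 ± 0.08, limma adjusted p = 0.021), and 0.77 with the authors' deposited value table. The remaining 4 tested, SPL2, SPL6, SPL10 and SPL13A, lay between -0.11 and 0.09 and did not pass. None of the 6 SPL genes that miR156 does not target passed (1 higher and 0 lower at an unadjusted p under 0.05 in limma, beside 22.3% and 20.6% of all genes), with a median of 0.05. In the small RNA route of phase change, AGO7 (AT1G69440), the Argonaute protein needed to make the small RNAs that restrain ARF3 and ARF4, fell at -0.51 ± 0.12 (limma adjusted p = 0.036). The other 11 genes of that list did not pass, ARF3 at 0.15 and ARF4 at -0.25 among them.

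**Figure D3:**
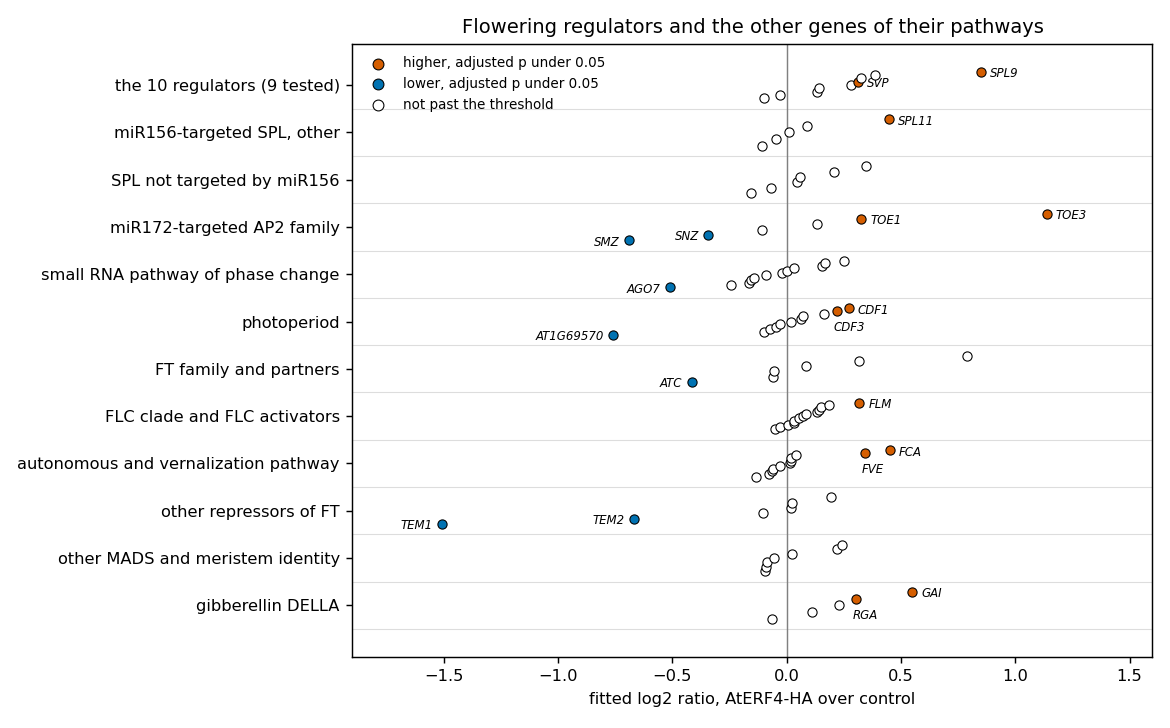
Fitted log2 ratio of AtERF4-HA over control (x axis) for each tested regulator and each tested gene of the 11 lists (rows), with filled points for genes past the threshold. TEM1 at -1.51 and TOE3 at 1.14 lie farthest from 0, and SPL9 at 0.85 is the farthest of the 9 regulators.

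In the photoperiod list 2 of 11 tested genes rose and 1 fell, beside 13.6% higher and 11.9% lower among all genes. CDF1 (AT5G62430) and CDF3 (AT3G47500), DOF proteins that repress CONSTANS, rose by 0.27 ± 0.05 and 0.22 ± 0.05, while AT1G69570 fell, at -0.76 ± 0.15. CDF1 came to 0.41 with the authors' deposited value table, CDF3 to 0.33 with median centring and AT1G69570 to -1.16 with no background correction and -1.56 with background-subtracted signals. CDF3 did not pass with an offset of 16 (adjusted p = 0.0611), with background-subtracted signals (0.0528) or without array 4 (0.118). CO itself, which encodes CONSTANS, was well above background on no array in either genotype, and GI and FKF1, which act upstream of it, were at 0.06 and 0.16 and did not pass.

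In the FT family, ATC (AT2G27550), a relative of FT that opposes flowering, fell at -0.42 ± 0.10 (limma adjusted p = 0.0383), with ratios of -0.46, -0.96, -0.14 and -0.10. It came to -0.83 with background-subtracted signals. It did not pass with an offset of 16 (adjusted p = 0.0573), without the dye term (0.0919) or without array 4 (0.0613). TSF, the closest relative of FT, was well above background on no array, and FD, the partner of FT at the shoot tip, was at 0.09 and did not pass. TFL1 and MFT were at 0.32 and 0.79 and did not pass either (limma adjusted p = 0.106 and 0.0857). In this list 2 of 6 tested genes were called higher with no background correction, background-subtracted signals, processed signals, the value table, or without array 3. Those settings called 4195, 4052, 5050, 7892 and 3237 of all genes higher.

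Of 13 tested genes in the FLC clade and among FLC activators, FLM (AT1G77080), a MADS-box partner of SVP, rose by 0.32 ± 0.06 (limma adjusted p = 0.0222) and 12 did not pass. Of the 13, 7 were called higher with the authors' deposited value table. That setting called 7892 of 19499 genes higher and moved the median of all genes by 0.14. A second FLM probe above background averaged 0.27 and another, dim one 0.02. In the autonomous and vernalisation list, whose products keep FLC low, FCA (AT4G16280) and FVE (AT2G19520) rose by 0.45 ± 0.08 and 0.34 ± 0.08 and 9 genes did not pass. The probes of FCA disagreed, since the dimmer one averaged 0.02, and the mean of both gave 0.23 (adjusted p = 0.0575). FVE did not pass with an offset of 16 (adjusted p = 0.0517).

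The DELLA genes GAI (AT1G14920) and RGA (AT2G01570), whose proteins restrain gibberellin responses, rose by 0.55 ± 0.06 and 0.30 ± 0.06 (limma adjusted p = 0.00671 and 0.0266). The other 3 DELLA genes did not pass, and the median of the 5 was 0.23. Of the 12 other MADS-box and meristem identity genes, 7 were tested and none passed (limma, 2 higher and 0 lower at an unadjusted p under 0.05, beside 22.3% and 20.6% of all genes). LFY, AP1 and CAL, which mark a shoot tip that has begun to form flowers, were well above background on no array in either genotype.

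Marker genes checked the labelled tissue. The 4 green tissue and 5 root markers were all above background on every array in both genotypes, and none of the 3 seed markers was tested. Of the green tissue markers RCA rose (0.33 ± 0.06) and 3 did not pass, although the ratios of RCA were -0.12, -0.02, 0.68 and 0.76, negative on the arrays with AtERF4-HA in Cy3. RCA lost its call with processed signals (0.14, adjusted p = 0.121), without the dye term (0.204) and with array 1 or 2 left out (0.107 and 0.149), and came to 0.49 with median centring. The mean log2 signal of the 4 green markers was 13.91 to 14.19 in AtERF4-HA seedlings and 13.72 to 13.96 in control seedlings. Of the root markers CASP1 and COBL9 rose, at 0.47 ± 0.08 and 0.43 ± 0.07, and SCR fell at -0.31 ± 0.07. CASP1 and COBL9 lost their calls when array 1 or 2 was left out (adjusted p = 0.0665 to 0.125), COBL9 came to 0.66 with the authors' deposited value table, and SCR missed the threshold in 6 of 14 other settings, median centring among them (-0.22, adjusted p = 0.193). The mean log2 signal of the 5 root markers was 10.95 to 11.11 in AtERF4-HA seedlings and 10.62 to 10.83 in control seedlings. The part of green and root tissue in the ratios of the 10 regulators was not tested.

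Of the 4 floral organ markers, AP3 and AG were too dim to test, whereas PI (AT5G20240) and SEP3 (AT1G24260), MADS-box genes of petal, stamen and floral organ identity, were above background on all arrays and fell. PI had signals of 8.53, 8.05, 8.84 and 8.23 in AtERF4-HA seedlings, against 10.44, 9.97, 9.72 and 10.73 in control seedlings (-1.80 ± 0.27, 3.49-fold lower, limma adjusted p = 0.0129). The SEP3 ratios were -0.81, -1.33, -0.34 and -1.63, with a fitted value of -1.03 ± 0.23 (limma adjusted p = 0.0357). With background-subtracted signals PI came to -3.07 and SEP3 to -2.57, and SEP3 to -1.67 with no background correction. Both lost their calls when array 1 or 2 was left out (adjusted p = 0.0874 to 0.194), as SEP3 did with an offset of 16 (adjusted p = 0.0544). The mean log2 signal of PI and SEP3 was 7.91 to 8.60 in AtERF4-HA seedlings and 9.21 to 10.14 in control seedlings, and AP3 was well above background in 1 control channel and AG in none. The part of floral tissue in the ratios of the 10 regulators was not tested.

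**Figure D4:**
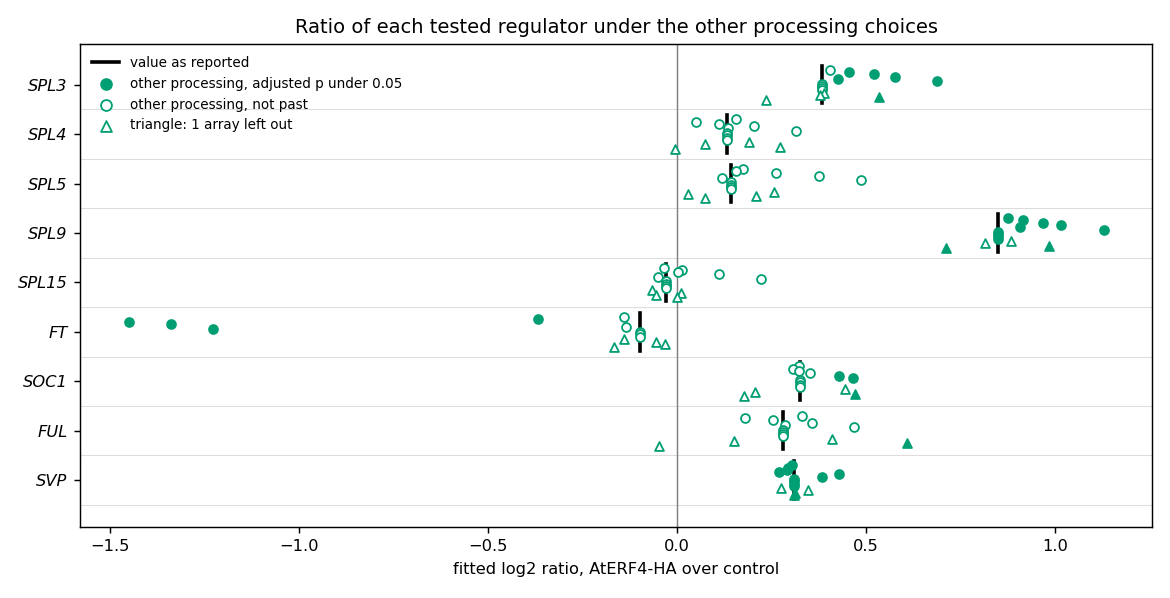
Fitted log2 ratio of AtERF4-HA over control (x axis) of each tested regulator (rows) as reported (black bar) and in the other settings (circles, or triangles with 1 array left out), filled where the adjusted p was under 0.05. SPL9 stays between 0.71 and 1.13 and SVP between 0.27 and 0.43, while FT runs from -1.45 to -0.03. Where 1 array was left out, the other array of its dye orientation added no spread to the fit.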

How the data were processed

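The authors' deposited scanner files hold the intensity of each spot in green (Cy3) and red (Cy5). The submitters' processing notes name Agilent Feature Extraction, version 9.1.3.1. The log10 ratio in the files is red over green per the file headers, and was not used. Flags mark uneven or saturated spots and those clear of background. The authors' deposited value table was a natural log of control over AtERF4-HA by the dye labels. It had a slope of -0.693 and a correlation of -1.00 against the log2 ratio of the processed signals, with a constant of -0.08 added on each array and column medians of -0.22, -0.05, -0.14 and -0.08. The sources used here do not say how it was made.

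From median signals, ratios were computed in limma 3.58.1 (R 4.3.3) by normexp with an offset of 50 and loess on each array. Control spots and uneven or outlying spots were dropped. A gene was tested, by its brightest probe, where 1 genotype was well above background on all 4 arrays. The fit had a genotype and a dye term, with 2 residual and 2.79 prior degrees of freedom. Signals by genotype were scaled between arrays with Aquantile. All arrays share 1 slide, so slide could not be a block. The fit was tested on simulated data. Alternatives changed the offset (16), the normalisation (median centring), the filter, the dye term or the probe rule, or left out each array in turn. The setting with no background correction and that with background-subtracted signals kept loess but used neither normexp nor the offset. No normexp, offset or loess was applied to the processed signals or the value table. Background-subtracted and processed signals below 1 were set to 1.

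The regulators and lists were chosen with earlier results of these data known. From each list, the 2 called genes with the largest ratio, of 1 sign on all arrays, were named, and the other called genes were added after their values were seen. List symbols were checked against the RefSeq table of assembly TAIR10.1, which leaves AT1G69570 unnamed. A promoter motif search that had been planned was not run, since no sequences were used here.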

Additional observations from a re-analysis of the deposited data

Results flagged for a closer look

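In 33 genes named above, the ratios on the 4 arrays were searched for 1 array far from the other 3, and 4 genes had one. Chance alone flags about 1 in 20 such groups. SPL3 stood out on array 4 with a log2 ratio of AtERF4-HA over control of 0.86, and SPL11 on the same array with 0.71. SVP was low on array 2, at 0.20, and FLM was low on array 1, at 0.20. The cause was not tested in any of them.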

How the results depend on the processing

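Across 14 other settings, 107 of 125 values of the 9 tested regulators stayed on their side of the threshold, 4 lost and 14 gained a call, and none that was called changed sign. Instead of 2 regulators, 4 were called higher with median centring (2928 of all genes) and 4 with the authors' deposited value table, and 0 to 5 with 1 array left out. FT made the count of lower calls 1 instead of 0 with no background correction, background-subtracted signals, processed signals and the value table. The count of genes called higher, 2654, became 4195 with no background correction, 4052 with background-subtracted signals, 5050 with processed signals, 7892 in the value table, and 227 to 3237 with 1 array left out. The count called lower, 2329, became 4925, 4491 and 3926 in the same 3 signal settings and 428 to 3878 with 1 array left out. Without array 1 the counts were 257 higher and 428 lower, and without array 2 they were 227 and 432. Each fit with 1 array left out had 1 residual degree of freedom. Without array 1 or 2 the spread between replicates came from arrays 3 and 4 alone, and without array 3 or 4 from arrays 1 and 2 alone. The ratios correlated at 0.87 between arrays 1 and 2 and at 0.75 between arrays 3 and 4 (Pearson, across genes). The cause of the changes in count was not tested. The value table moved the median of all genes by 0.14 (log2). Probes near background, those of FT and FLC among the 10, limit what can be seen. Both genotypes share each array, so each ratio is already a pair and the fit of the ratios is a paired one.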
